A study of Homo sapiens with 11 samples.

Results

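Expression of 8 genes of the PI3K-AKT pathway was examined in liver tumours grown from PANC1 LM3 cells: the kinases AKT1 and AKT2, the PI3K catalytic subunits PIK3CA, PIK3CB and PIK3CD, the regulatory subunits PIK3R1 and PIK3R3, and the lipid phosphatase INPP4B. They were taken by symbol from a table of 23434 genes or transcripts, and all 8 were found in it. PANC1 is an established line of human pancreatic ductal carcinoma, and PANC1 LM3 is its liver-metastatic derivative of the 3rd generation. The cells carried a control hairpin (shCTRL, genotype given as WT) or 1 of 2 hairpins against NPTX1 (shNPTX1_3 and shNPTX1_4, genotype given as NPTX1 knock down). Each spleen received 500000 cells on day 1, and liver tumours harvested on day 21 gave 4 shCTRL, 3 shNPTX1_3 and 4 shNPTX1_4 libraries. All groups share the same parental line, the host animals are not described in the sources used here, and nothing says whether each library came from its own animal, so p-values reflect library spread that may be technical in part.

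Growth factor receptors recruit class I PI3K, a dimer of a catalytic and a regulatory subunit, which phosphorylates a membrane phosphoinositide. The lipid product brings AKT kinases to the membrane, where PDK1 and the mTORC2 complex activate them, and AKT then acts on metabolism, growth through mTORC1, and FOXO transcription factors. Lipid phosphatases end the signal, and INPP4B among them acts on a breakdown product of the PI3K lipid. In pancreatic carcinoma the pathway is known for its part in growth and survival signalling from receptors.

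Group averages of normalised counts, and DESeq2 log2 fold changes of all 7 knockdown against all 4 control libraries with standard errors (SE) and adjusted p-values, come from the authors' deposited table. Single libraries were not analysed here, so averages carry no SD and any overlap of libraries between groups cannot be seen. Where 3 averages follow each other they stand in the order shCTRL, shNPTX1_3, shNPTX1_4. Judged by the size of a single read among low averages, libraries held from 13000000 to 41200000 reads on genes for shCTRL, from 10800000 to 24000000 for shNPTX1_3 and from 16600000 to 26100000 for shNPTX1_4. The targeted gene NPTX1 averaged 103, 46.5 and 38.4 normalised counts in the authors' deposited table. The epithelial keratin genes KRT8 and KRT18 had shCTRL means of 8293 and 5877 in the authors' deposited table, whereas KRT7 had 11.1 and EPCAM 462. KRT19 averaged 1272, 8180 and 4803 in the authors' deposited table. Of 6 such epithelial markers, 4 were higher and 1 lower after knockdown, and their sum went from 20274 in control to 59755 with shNPTX1_3 and 32140 with shNPTX1_4. Their part in the results below was not tested. Sums were 371, 424 and 369 for endothelial markers (0 of 6 called, 4 under 2 CPM) and 945, 916 and 1135 for fibroblast markers (1 of 6 higher, 4 under 2 CPM). The fibroblast sum was mostly COL1A1 (725, 701 and 1019), while COL1A2 averaged 74.3, 17.8 and 17.5. The marker called higher, LUM, had a mean of 14.4. Hepatocyte markers summed to 74.9, 153 and 87.4 (2 of 6 higher, all 6 under 2 CPM). Over all genes with an adjusted p, 27.3% were called. The hepatocyte gene ALB was near 0 in every group. Whether reads of these non-epithelial markers come from the grafted cells or the host is not known.

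Of the 8 genes, 4 were lower in the knockdown tumours and 0 were higher in the authors' deposited table, at an adjusted p under 0.05: PIK3CB, PIK3R1, PIK3R3 and INPP4B. Across all 18426 named genes with an adjusted p, 11.5% were lower, 15.8% were higher and 27.3% were called in either direction. AKT1 was the only one of the 8 above 0 in log2 fold change. The 8 were picked with this comparison known, so their count and the p-values given for them below are a description, and nothing is read from them. Scaling all groups to 1 total, which shifts every log2 fold change by -0.07, left 5 of the 8 lower and 0 higher. The same scaling turned the split over all genes from 2913 higher and 2114 lower to 2132 higher and 3017 lower, so directions of small changes depend on it. The nearest values on either side of the threshold among the 8 were the adjusted p of 0.0115 for PIK3CB and of 0.0724 for PIK3CD in the authors' deposited table.

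The regulatory subunits hold the catalytic subunits stable and dock them on phosphorylated receptors. PIK3R1, which encodes the most widely used regulatory subunits, averaged 1240 normalised counts with shCTRL, 836 with shNPTX1_3 and 638 with shNPTX1_4 in the authors' deposited table. Both knockdown means lay below control, and that of shNPTX1_4 was the lowest. Its log2 fold change was -0.78 (SE 0.12, DESeq2 adjusted p = 1.42e-09, from the authors' deposited table), or 0.582-fold. PIK3R3, a shorter regulatory subunit, averaged 1946, 1412 and 1505 normalised counts in the authors' deposited table. Its log2 fold change of -0.41 had the narrowest error of the 8 genes (SE 0.06, DESeq2 adjusted p = 7.09e-10, from the authors' deposited table). PIK3R2, the remaining regulatory subunit of receptor-coupled PI3K and not among the 8, also fell, with averages of 540.5, 444 and 400 and a log2 fold change of -0.37 (SE 0.09, DESeq2 adjusted p = 0.00057, from the authors' deposited table). PIK3R5 and PIK3R6, the regulatory subunits of the gamma enzyme, were at most at 1.30 normalised counts in any group of the authors' deposited table and had no adjusted p. PIK3R3 shares exons with a same-strand readthrough locus in GENCODE release 29, and the reads of the shared stretch cannot be told apart.

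Among the catalytic subunits, which carry the lipid kinase activity, PIK3CB was lower with both hairpins. It averaged 1804 normalised counts with shCTRL, 1481 with shNPTX1_3 and 1421 with shNPTX1_4, with a log2 fold change of -0.32 (SE 0.10, DESeq2 adjusted p = 0.0115, from the authors' deposited table). PIK3CA, often mutated in carcinomas, averaged 1223, 1134 and 1224 in the same order in the authors' deposited table. The group means of PIK3CA lay within 0.11 of each other on the log2 scale, and its log2 fold change was -0.04 (SE 0.08, DESeq2 adjusted p = 0.727, from the authors' deposited table). PIK3CD, the catalytic subunit best known from leukocytes, averaged 424, 400 and 292 normalised counts in the authors' deposited table. The shNPTX1_3 mean was close to control and the shNPTX1_4 mean below both, and the log2 fold change of -0.33 did not pass the test (SE 0.15, DESeq2 adjusted p = 0.0724, from the authors' deposited table). After scaling all groups to 1 total, PIK3CD was at -0.40 and passed (adjusted p = 0.0272). PIK3CG, the gamma catalytic subunit and not among the 8, averaged 31.2, 20.5 and 23.8 and did not pass (DESeq2 adjusted p = 0.152, from the authors' deposited table). PIK3CA and PIK3CD overlap KCNMB3 and CLSTN1 on the other strand in GENCODE, and without a stated strand setting their shared reads cannot be told apart. The same limit holds for INPP4B and AKT1, which overlap the noncoding genes AC139720.1 and AL583722.2 on the other strand.

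Because PIK3CD is a leukocyte-enriched gene, leukocyte markers were read beside it. The 8 leukocyte markers summed to 251, 242 and 185 normalised counts, and 5 of the 8 were under 2 CPM (38.6 normalised counts) on average. Single markers differed in direction and 1 of the 8 was called. The myeloid genes ITGAM and CD14 averaged 51.2, 83.8 and 47.5, and 16.6, 22.8 and 6.30, in the authors' deposited table, and neither passed. The pan-leukocyte gene PTPRC averaged 50.2, 43.2 and 41.7, the T cell gene CD3E was at 0, 1.23 and 0, and the lysosomal leukocyte gene LAPTM5 fell from 33.3 to 23.1 and 8.69 (DESeq2 adjusted p = 0.0088, from the authors' deposited table). Their part in the value of PIK3CD was not tested. In these bulk samples, fewer cells of a type and less RNA per cell cannot be told apart. Any removal of mouse reads is not given, so whether reads of these markers come from the grafted cells or the host is not known. The sums are therefore not a measure of leukocyte content.

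**Figure D1:**
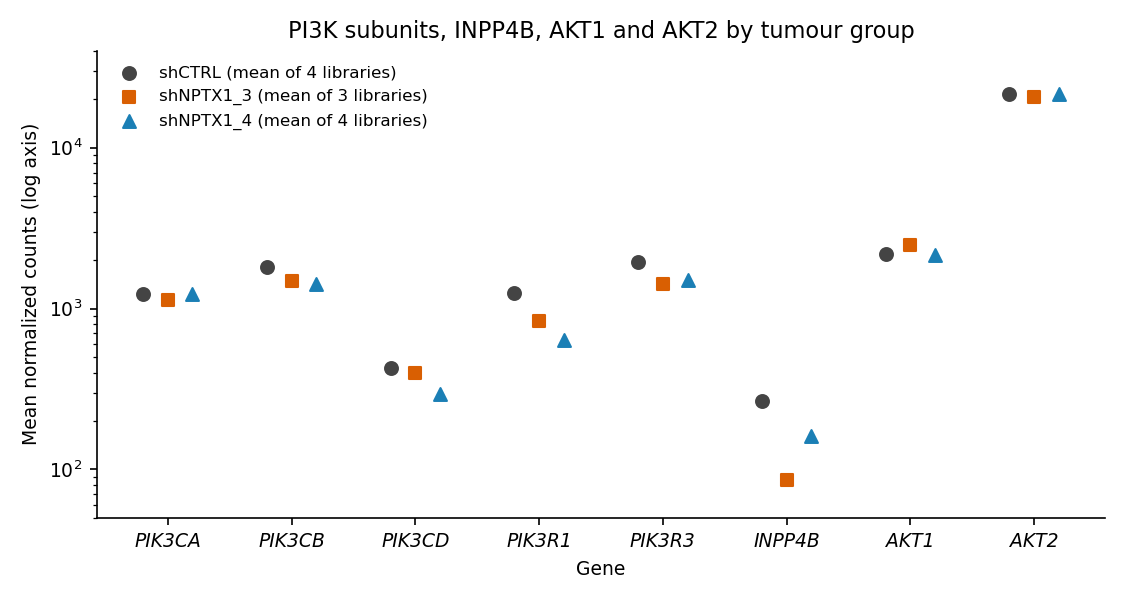
Mean normalised counts (log axis) of the 8 genes, a point for each tumour group, with no error bars because only group means were used. PIK3CB, PIK3R1, PIK3R3, INPP4B and PIK3CD have both knockdown points below control, while AKT2 stays between 20733 and 21657 normalised counts in all groups.

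The promoters of the 4 genes called lower are printed with that of PIK3CA, whose level barely differed, so that the sequences upstream of subunits that moved and that did not can be set side by side. Each line gives the 250 bases before the RefSeq start nearest to the 5′ end of the gene in GENCODE, on GRCh38.p14, which is not the build of the deposited table, read 5′ to 3′ along the gene's strand. Capitals mark matches, on the printed strand or as the reverse complement, to a FOXO core spelled GTAAACA, to the letters of a CCAAT box, or to a GC box. The GC box was searched as GGGCGG. Matches of the same or different motifs can overlap and then print as 1 longer run.
PIK3R1 (chr5:68215506-68215755, plus strand): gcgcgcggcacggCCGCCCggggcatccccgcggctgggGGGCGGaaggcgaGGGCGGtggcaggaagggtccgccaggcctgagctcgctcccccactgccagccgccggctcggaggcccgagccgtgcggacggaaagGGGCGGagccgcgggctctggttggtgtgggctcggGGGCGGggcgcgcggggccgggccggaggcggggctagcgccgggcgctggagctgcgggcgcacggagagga
PIK3R3 (chr1:46133037-46133286, minus strand): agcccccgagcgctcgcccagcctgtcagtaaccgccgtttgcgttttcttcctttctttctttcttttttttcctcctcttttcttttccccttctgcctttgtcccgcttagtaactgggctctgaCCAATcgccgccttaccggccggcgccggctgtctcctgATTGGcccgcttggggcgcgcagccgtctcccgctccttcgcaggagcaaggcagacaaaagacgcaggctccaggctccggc
PIK3CB (chr3:138834929-138835178, minus strand): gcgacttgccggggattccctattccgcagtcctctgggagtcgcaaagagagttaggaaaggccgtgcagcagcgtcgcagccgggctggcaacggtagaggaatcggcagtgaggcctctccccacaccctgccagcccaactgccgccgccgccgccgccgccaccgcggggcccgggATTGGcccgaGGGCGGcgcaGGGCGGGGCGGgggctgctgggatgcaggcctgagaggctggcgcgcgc
INPP4B (chr4:142846302-142846551, minus strand): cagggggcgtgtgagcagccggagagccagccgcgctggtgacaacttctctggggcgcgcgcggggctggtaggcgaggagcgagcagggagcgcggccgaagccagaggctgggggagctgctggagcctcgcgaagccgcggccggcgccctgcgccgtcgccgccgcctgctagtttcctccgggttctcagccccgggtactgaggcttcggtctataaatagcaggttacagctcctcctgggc
PIK3CA (chr3:179148107-179148356, plus strand): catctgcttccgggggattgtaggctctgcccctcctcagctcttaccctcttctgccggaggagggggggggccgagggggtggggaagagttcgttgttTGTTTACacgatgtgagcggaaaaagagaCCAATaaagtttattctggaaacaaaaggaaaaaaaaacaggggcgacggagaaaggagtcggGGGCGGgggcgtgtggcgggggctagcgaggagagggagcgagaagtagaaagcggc

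All 8 genes had an entry among the RefSeq promoters. PIK3R1, PIK3R3, PIK3CB and INPP4B had 4, 6, 2 and 6 entries, and PIK3CA had 1. Only 1 window per gene was read, and which start these tumours use is not known. The FOXO core was found in 1 of the 8 windows, that of PIK3CA, starting 149 bases before the start, and 2.98% of 35116 RefSeq windows of the same length hold it. PIK3R1 had 5 GC boxes and no CCAAT box, PIK3R3 had 2 CCAAT boxes and no GC box, and PIK3CB had 1 CCAAT box and 3 GC boxes. Neither was found in the window of INPP4B. Over all windows 32.0% hold a CCAAT box and 42.6% a GC box. None of the 3 motifs was found in all 4 genes that were lower, since INPP4B held none. PIK3R3 and PIK3CB both held a CCAAT box, and PIK3R1 and PIK3CB both held a GC box. Genes that were not called held these boxes too. PIK3CA had 1 CCAAT box and 1 GC box, and AKT1, AKT2 and PIK3CD had 7, 4 and 1 GC boxes and no CCAAT box. These are matches of letters and show no binding.

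INPP4B, the phosphatase that acts on the breakdown product of the PI3K lipid, showed the largest difference of the 8. It averaged 267 normalised counts with shCTRL, 86.5 with shNPTX1_3 and 161 with shNPTX1_4 in the authors' deposited table. Both knockdown means were below control, and shNPTX1_3 was the lower of them. The log2 fold change was -1.04 (SE 0.22, DESeq2 adjusted p = 2.91e-05, from the authors' deposited table), or 0.488-fold, and its SE was the widest of the 8. The log2 ratio to control, with a pseudocount of 1, was -1.61 with shNPTX1_3 and -0.73 with shNPTX1_4, a gap of 0.88 between hairpins, or 4.10 times the SE of the comparison. That SE belongs to the pooled knockdown against control and not to a contrast of hairpins, so it serves as a scale only. Some other pathway genes had gaps of like size, such as PHLPP1 at -3.96 and EIF4EBP2 at 3.91 times their SE (shNPTX1_4 minus shNPTX1_3). Others had smaller ones, such as RICTOR at 0.82. The gap of INPP4B was not tested, since a test needs values of single libraries. Among 14131 genes at 2 CPM or more, the 3 nearest to INPP4B in the pair of log2 ratios were ANKRD18B, SKIDA1 and SSPO, at distances of 0.0895, 0.122 and 0.131 on the log2 scale. With only 3 group means, such likeness is a weak description. SKIDA1 averaged 1879, 641 and 1220 normalised counts in the authors' deposited table.

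Among 6 other phosphoinositide phosphatases, 1 was lower and 0 were higher. INPP4A, the paralog of INPP4B, averaged 878, 739 and 886 and did not pass (DESeq2 adjusted p = 0.505, from the authors' deposited table). INPP5E, a phosphatase of the primary cilium, fell by 0.28 on the log2 scale (DESeq2 adjusted p = 0.0314, from the authors' deposited table), while the PI3K-lipid phosphatase INPPL1 had a log2 fold change of 0.20 without passing (DESeq2 adjusted p = 0.0812).

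AKT1 and AKT2 barely differed between groups. AKT1, the broadly expressed isoform, averaged 2190 normalised counts with shCTRL, 2473 with shNPTX1_3 and 2140 with shNPTX1_4 in the authors' deposited table. The shNPTX1_3 mean was above control and the shNPTX1_4 mean just below it, and the log2 fold change was 0.06 (SE 0.10, DESeq2 adjusted p = 0.697, from the authors' deposited table) and -0.0072 with groups scaled to the same total. AKT2, the isoform best known for insulin signalling, averaged 21440, 20733 and 21657 in the authors' deposited table. Its log2 fold change was -0.01 (SE 0.06, DESeq2 adjusted p = 0.910, from the authors' deposited table), so the difference was smaller than its error.

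Levels of different genes were compared as normalised counts per kilobase of annotated exon. In shCTRL the order was AKT2 at 3667 per kilobase, AKT1 at 477, PIK3R3 at 327, PIK3CB at 301, PIK3R1 at 160, PIK3CA at 133, PIK3CD at 74.8 and INPP4B at 22.5. Whether neighbours such as PIK3R3 and PIK3CB differ beyond the spread of libraries cannot be told from group means. AKT2 stood 7.68 times above AKT1 in shCTRL, 6.58 times in shNPTX1_3 and 7.94 times in shNPTX1_4. It made up 88.5%, 86.8% and 88.8% of the sum of AKT1 and AKT2 in shCTRL, shNPTX1_3 and shNPTX1_4. That sum was 98.6% of control with shNPTX1_3 and 100.6% with shNPTX1_4.

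On the same scale, the transcripts of PI3K subunits were compared within each subunit family. PIK3CB gave 58.5% of the summed class I catalytic level in shCTRL, 55.6% in shNPTX1_3 and 55.6% in shNPTX1_4, followed by PIK3CA with 25.9%, 27.8% and 31.3%. Among PIK3R1, PIK3R2 and PIK3R3, PIK3R3 gave 52.8%, 52.2% and 58.4%, and the share of PIK3R1 was 25.8%, 23.7% and 19%. The summed catalytic level was 86.4% of control with shNPTX1_3 and 82.8% with shNPTX1_4. The summed regulatory level was 73.3% and 69.9% of control. The ratio of catalytic to regulatory level was thus 0.830 in shCTRL, 0.979 in shNPTX1_3 and 0.983 in shNPTX1_4. These sums carry no replicate error, and transcript levels do not give the amount of protein. Shares and levels per kilobase also depend on the annotated exon lengths, such as 9.18 kb for PIK3CA and 5.99 kb for PIK3CB. Before division by length these 2 genes averaged 1223 and 1804 normalised counts in shCTRL. Which exons these tumours use is not known.

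**Figure D2:**
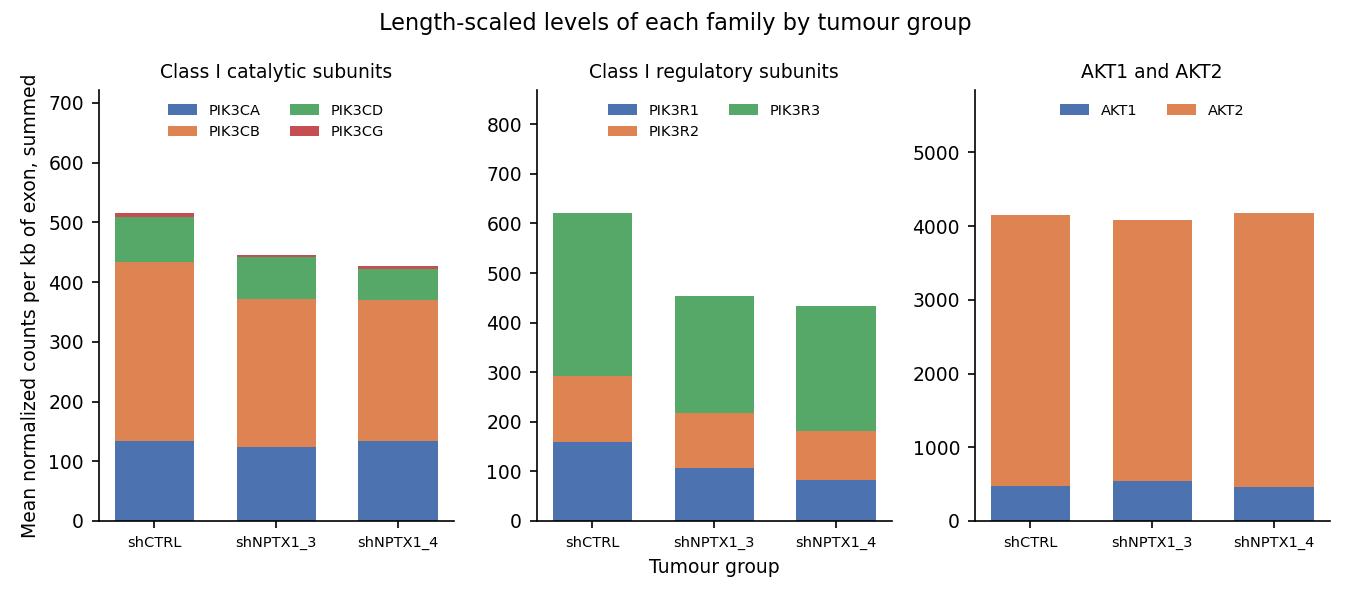
Summed mean normalised counts per kilobase of exon for class I catalytic subunits, regulatory subunits and the AKT1 and AKT2 kinases in each tumour group, with each colour standing for a gene and no error bars. The regulatory bars of shNPTX1_3 and shNPTX1_4 reach 73.3% and 69.9% of control, and AKT2 fills most of every bar it shares with AKT1.

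AKT2 ranked 220 among 13644 genes at 2 CPM or more with a known exon length, ordered by mean level per kilobase. As background, gain of the chromosome region that holds AKT2 has been described in PANC1 cells. Copy number was not measured here, and its part in the AKT2 level was not tested. The 25 nearest protein-coding genes in RefSeq order on either side of AKT2 were read, a choice made after the level of AKT2 was seen. Each side held 18 genes at 2 CPM or more and 7 below it. On the centromeric side, 10 of the 18 were over 1000 normalised counts per kilobase in shCTRL, or 55.6%, against 7.07% of all genes at 2 CPM or more. On the telomeric side, 0 of the 18 were. The telomeric genes HNRNPUL1 and AXL lay under that limit, at 929 and 850 per kilobase in shCTRL. Above the 90th percentile of mean level per kilobase lay 11 of the 25 centromeric and 2 of the 25 telomeric genes. The median level per kilobase of the 18 centromeric genes was 2540, 1989 and 2285 in shCTRL, shNPTX1_3 and shNPTX1_4, and that of the 18 telomeric genes was 91.9, 92.6 and 84.6. Over all genes at 2 CPM or more the shCTRL median was 142. With the genes under 2 CPM included, the side medians were 605, 579 and 619 against 76.5, 68.0 and 71.6. The genes next to AKT2 were TTC9B and then MAP3K10 on the centromeric side, at 11.9 and 490 per kilobase in shCTRL, and C19orf47 and then PLD3 on the telomeric side, at 143 and 168. TTC9B averaged 9.91 normalised counts over all libraries, under 2 CPM, so its level is poorly measured. Farther out on the centromeric side lie PAF1 and SUPT5H, factors of transcription elongation, and PSMC4, a subunit of the proteasome. They were chosen for their high levels, with 12291, 6392 and 14785 per kilobase in shCTRL. Lower genes lie between PAF1 and PSMC4, such as DLL3, DYRK1B and FCGBP at 398, 605 and 40.4 per kilobase in shCTRL. The centromeric median was the higher in all 3 groups. In the comparison of knockdown with control, 4 of the 21 tested centromeric genes were higher and 3 lower, and 0 of the 23 tested telomeric genes were higher and 3 lower.

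**Figure D3:**
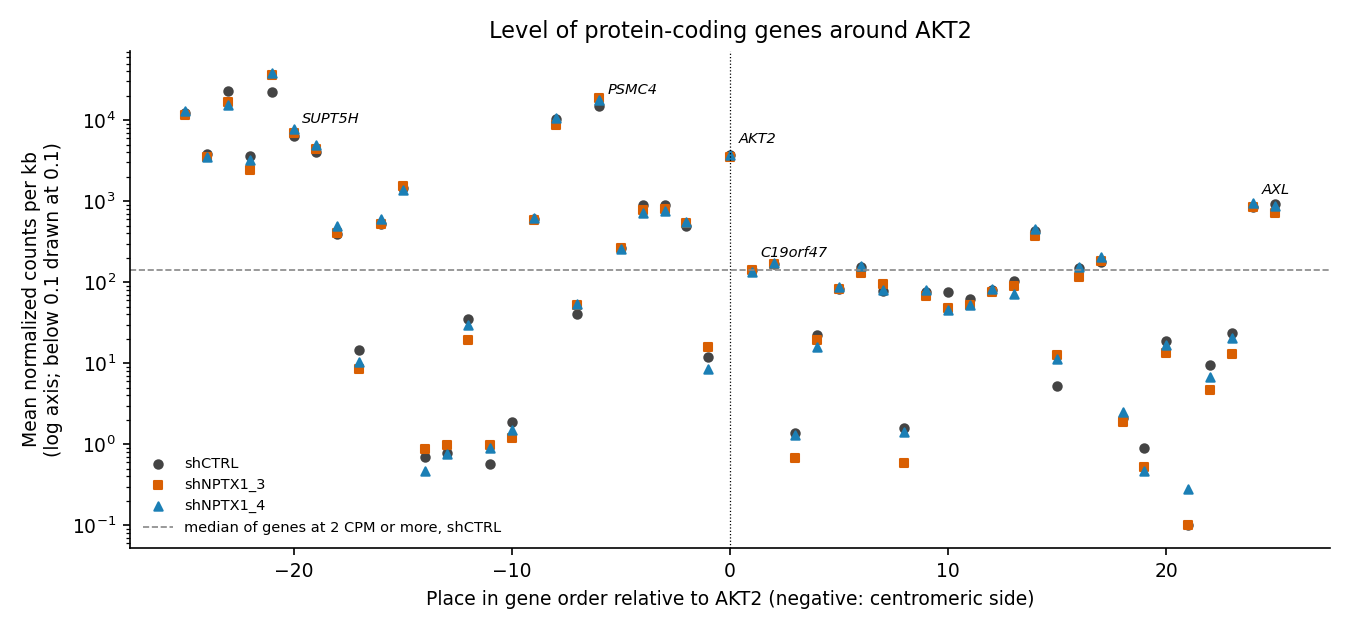
Mean normalised counts per kilobase of exon (log axis, values below 0.1 drawn at 0.1) of 25 protein-coding genes on each side of AKT2 in gene order, with a symbol for each tumour group. The centromeric side holds 10 genes over 1000 in shCTRL and the telomeric side 0, and the symbols of the groups lie close together at most places.

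Besides the 8, 70 genes of the pathway were listed by role from textbook knowledge, with earlier results of these data known. Of these, 68 had an adjusted p in the authors' deposited table, and 16 were lower and 4 higher, or 29.4% called against 27.3% of all genes. Their median log2 fold change was -0.06, against -0.0078 over all genes tested. With groups scaled to the same total, 19 were lower and 2 higher. Lower calls made up 23.5% of these genes against 11.5% of all genes, and higher calls 5.88% against 15.8%. The genes were listed with earlier results known and no role below was tested as a set, so nothing particular to the pathway is read from these shares.

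Receptors and adaptors, which bring PI3K to the membrane, held 3 lower and 1 higher among 8 genes. The docking protein gene GAB1 fell from 243 normalised counts to 145 and 112 (log2 fold change -0.94, SE 0.15, DESeq2 adjusted p = 2.28e-08, from the authors' deposited table). The insulin receptor gene INSR fell from 310 to 149 and 206, and the insulin receptor substrate gene IRS2 from 867 to 660 and 615, by the authors' deposited table. GAB2, a relative of GAB1, moved the other way and rose by 0.39 (DESeq2 adjusted p = 0.00032, from the authors' deposited table). IRS1 had a log2 fold change of 0.06 and did not pass (DESeq2 adjusted p = 0.732, from the authors' deposited table).

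Among the kinases and phosphatases that act on AKT itself, PDPK1, which encodes PDK1, fell by 0.33 on the log2 scale (SE 0.07, DESeq2 adjusted p = 8.68e-05, from the authors' deposited table), with log2 ratios of -0.31 and -0.33 for the hairpins. RICTOR, the defining subunit of mTORC2, rose by 0.25 (DESeq2 adjusted p = 0.015, from the authors' deposited table), a call that was lost with groups scaled to the same total (adjusted p = 0.0825). PHLPP1, a phosphatase that inactivates AKT, averaged 175, 113 and 60.7 normalised counts and fell by 1.09 (SE 0.22, DESeq2 adjusted p = 2.50e-05, from the authors' deposited table). Its paralog PHLPP2 had a log2 fold change of 0.11 and did not pass (DESeq2 adjusted p = 0.303, from the authors' deposited table). Of 7 genes of PDK1 and mTORC2, 1 was higher and 1 lower.

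Downstream, 2 of 12 genes of the mTORC1 branch were higher and 2 lower. DEPTOR, an inhibitor of mTOR, rose from 273 to 493 and 406 normalised counts (log2 fold change 0.70, SE 0.13, DESeq2 adjusted p = 8.85e-07, from the authors' deposited table). RHEB, the GTPase that activates mTORC1, rose by 0.34 (DESeq2 adjusted p = 0.018, from the authors' deposited table), and lost its call with groups scaled to the same total (adjusted p = 0.0628). AKT1S1, an AKT substrate that restrains mTORC1, and EIF4EBP1, a translation repressor, fell by 0.31 and 0.34 in the authors' deposited table. Of 10 other AKT substrates, with AKT1S1 counted in the mTORC1 branch, 4 were lower and 0 higher. TBC1D4, a regulator of glucose transporter traffic, fell from 485 to 317 and 230 (log2 fold change -0.87, SE 0.13, DESeq2 adjusted p = 3.03e-09, from the authors' deposited table). The kinase gene GSK3A and the transcription factor genes FOXO1 and FOXO3 fell by 0.45, 0.38 and 0.26 in the authors' deposited table. The call of FOXO1 was lost without a filter on low counts (adjusted p = 0.057).

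**Figure D4:**
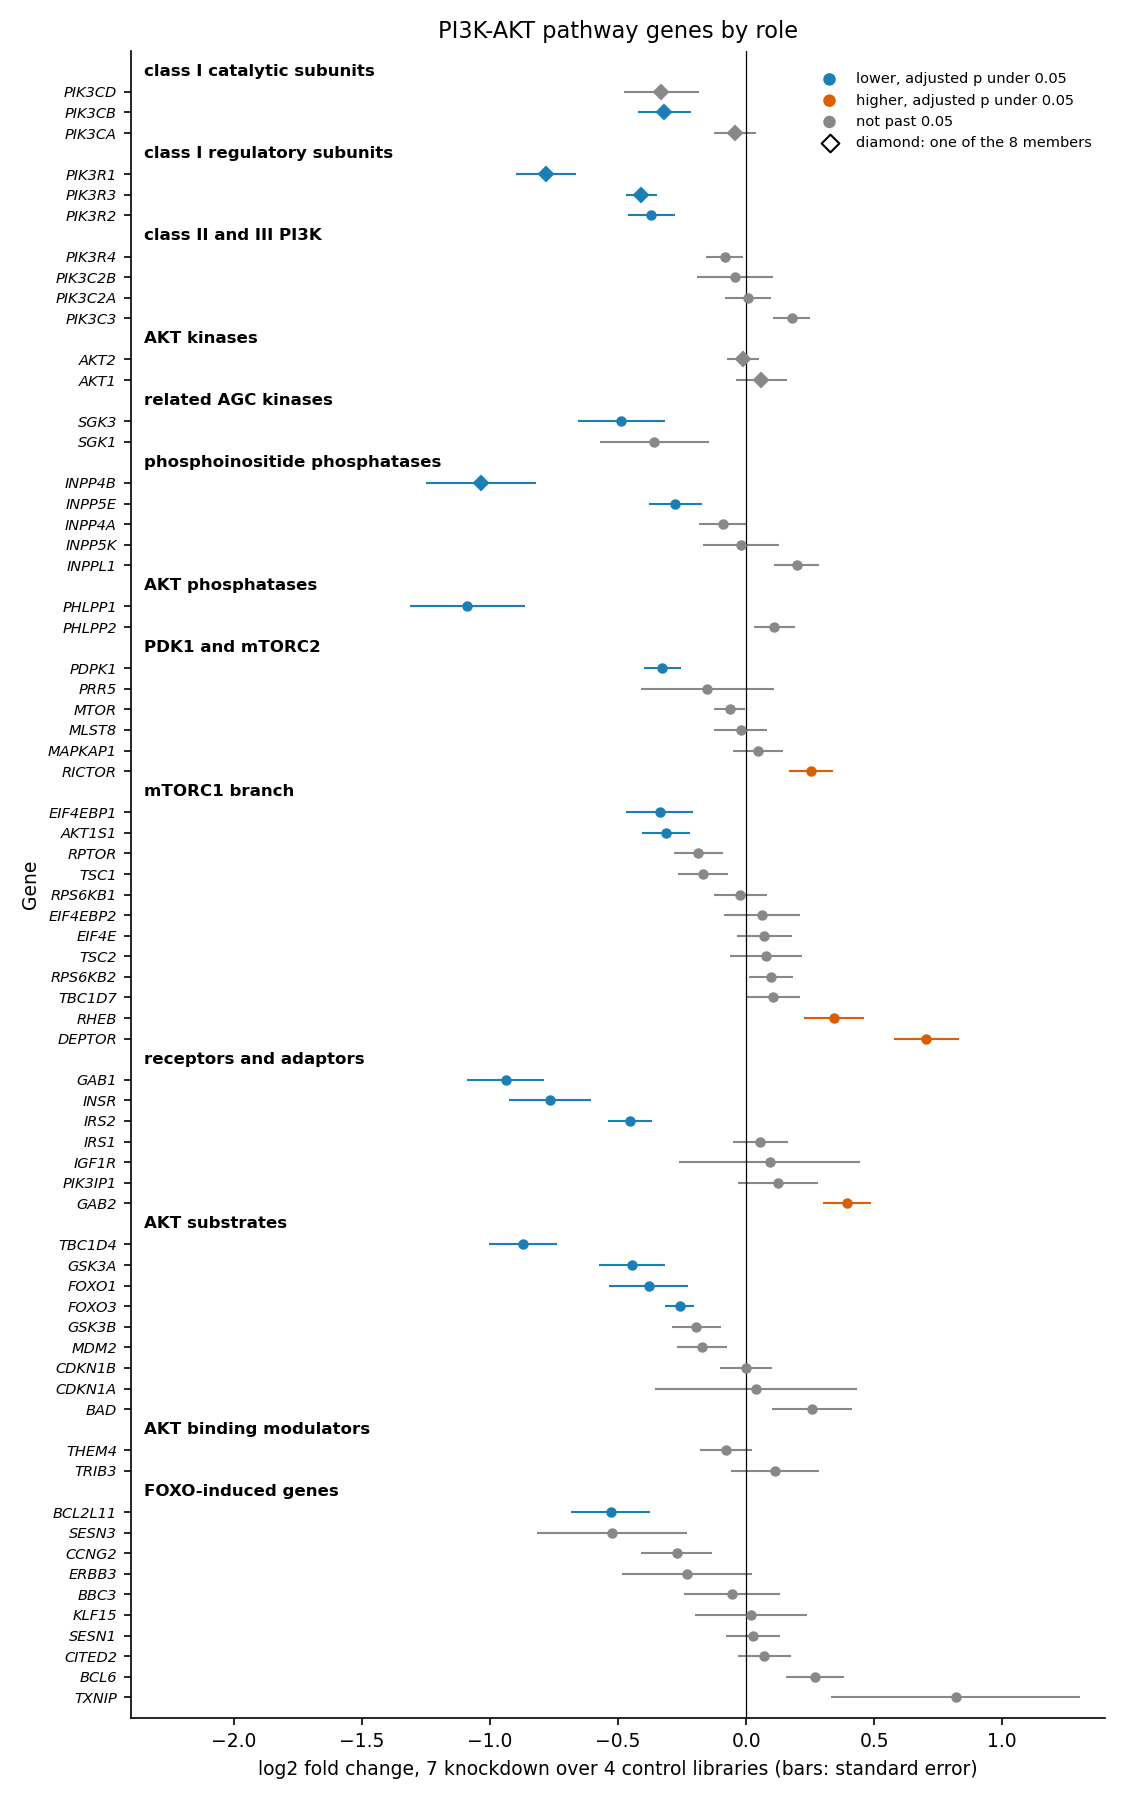
Log2 fold change of 7 knockdown over 4 control libraries with its standard error, from the authors' deposited table, for pathway genes at 2 CPM or more grouped by role. Diamonds are the 8 members, of which 4 are lower, and colours give the direction of calls at an adjusted p under 0.05.

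The hairpins were then set against the same control libraries one by one. For PIK3R1 the log2 ratio was -0.57 with shNPTX1_3 and -0.96 with shNPTX1_4, a gap of 3.32 times the SE of the comparison. For PIK3CD it was -0.09 and -0.54, a gap of 3.10 times the SE. PIK3R3 lay at -0.46 and -0.37 and PIK3CB at -0.28 and -0.34, closer to each other. INPP4B was lower with shNPTX1_3, and PIK3R1 and PIK3CD were lower with shNPTX1_4. None of these gaps was tested with single libraries, and the SE is that of the pooled knockdown against control. AKT1, AKT2 and PIK3CA had 1 hairpin on each side of control, each within 0.18 of it on the log2 scale. Scaling all groups to 1 total moves these ratios by -0.09 for shNPTX1_3 and -0.04 for shNPTX1_4, after which AKT2 and PIK3CA also have both hairpins below control.

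**Figure D5:**
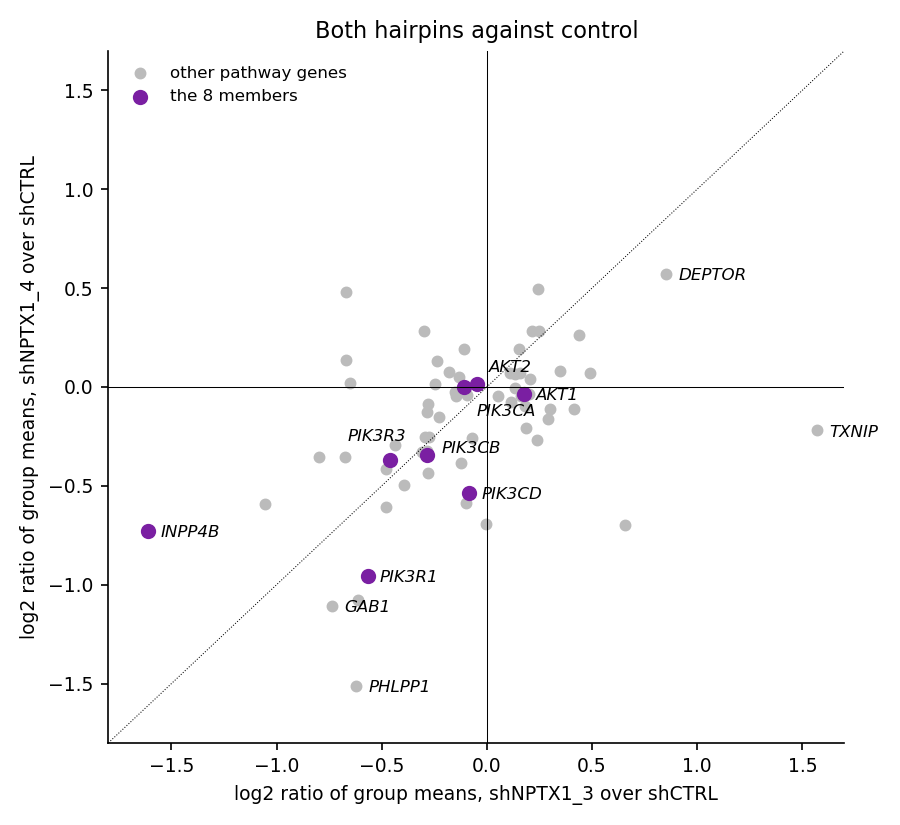
Log2 ratio of group means to control for shNPTX1_3 (x axis) and shNPTX1_4 (y axis), with a pseudocount of 1, for the 8 genes (purple) and other pathway genes at 2 CPM or more (grey), the dotted line marking equal ratios. INPP4B lies at -1.61 and -0.73 and PIK3R1 at -0.57 and -0.96, on opposite sides of the line, while AKT1, AKT2 and PIK3CA lie near the origin.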

How the data were processed

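Per the labels' protocols, tumour RNA came from a Norgen kit and TruSeq was used for libraries. DESeq2 1.24, featureCounts 2.0.0, STAR 2.7.6a and MultiQC 1.9 are named by the submitters' processing notes, as are hg19 and mm39, with no roles. Annotation, strand setting and any removal of mouse reads: not given in the sources used here. Per the file headers, the authors deposited group means, a signal of counts over size factors, averaged by group, so each library weighs alike whatever its depth. The authors' deposited log2 fold change compares 7 knockdown with 4 control libraries, and its Wald statistic is a score, the change divided by its error. Each p-value the authors deposited, raw or adjusted, is taken to come from DESeq2, and an adjusted p below 0.05 made a call.

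From 23434 rows, 107 were left out (79 without a name, 26 named by a date, 2 with a repeated name), which held 0.387% of the counts. Log2 ratios of single hairpins used a pseudocount of 1, which understates changes of low genes. CPM refers to the mean of the group totals, weighted by libraries. Exon lengths are unions of exons in the basic set of GENCODE 29, found for 22387 of 23327 named genes. Python 3.11.15 with pandas 2.3.3, numpy 2.4.6 and scipy 1.17.1 was used, and the recomputed adjustment was tested on simulated data.

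The members and lists were chosen with earlier results of these data known. Some pathway genes are not reported here and are left out of every list and count of pathway genes. Named were the 8 members, NPTX1, and, of each list of other pathway genes, up to 4 called genes at 2 CPM or more by size of change, or its best expressed gene where none was called, and the 3 genes nearest in hairpin ratios to the called member with the largest fall (no member rose). Other genes were named after their values were seen, as paralogs or comparisons. Alternatives were total-count scaling, no filter, a filter at 2 CPM, a threshold of 0.01 and other pseudocounts.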

Additional observations from a re-analysis of the deposited data

How the results depend on the processing

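The count of members called was 5 with total-count scaling, 4 without a filter, 4 with a filter at 2 CPM and 3 at an adjusted p under 0.01, all lower. At 0.01, 13 of the other pathway genes were called in place of 20, and 3148 genes in place of 5027 over the table. By construction a stricter threshold lowers these counts. Single genes were followed for 29 named genes, the 8 members and those taken by rule from the lists of other pathway genes. Among these 29, total-count scaling reversed the sign of 2 that were not called: AKT1 went to -0.0072 and PIK3C2A to -0.058. Genes named outside the 29, such as IRS1 with a log2 fold change of 0.06 before this scaling, were not counted. Total-count scaling ended the calls of RICTOR and RHEB and made that of PIK3CD. At 0.01, 7 of the 29 genes lost their calls, among them PIK3CB and SGK3. SGK2, outside the 29, was also above 0.01 (DESeq2 adjusted p = 0.0195). Of 48 hairpin ratios of the members under other pseudocounts or scaling, 45 moved by less than the SE of the comparison. No paired analysis was possible because the table holds group means and no values of single libraries. For the same reason leaving out single libraries and a test of counts were not run. At the depth of these libraries genes under 2 CPM, such as PIK3R5, PIK3R6 and most leukocyte markers, are poorly measured.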

Other observations

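Other branches of the pathway are given by their number of calls, beside 27.3% called over all genes. Their lists are short, so these counts are not read as differences between branches. Of 5 genes of class II and class III PI3K, which make other phosphoinositides, 0 passed by DESeq2, with 1 at an unadjusted p under 0.05. PIK3C2A, the best expressed of them, averaged 3572, 3863 and 3386 normalised counts in the authors' deposited table. PIK3C3, the lipid kinase of autophagy, had a log2 fold change of 0.18 (DESeq2 adjusted p = 0.0514, from the authors' deposited table). Of 3 SGK kinases, relatives of AKT, 2 were lower. SGK3 fell by 0.49 and SGK2 by 0.65 (DESeq2 adjusted p = 0.0189 and 0.0195, from the authors' deposited table), SGK2 at a mean below 2 CPM. SGK1 averaged 6301, 6280 and 3892 and did not pass (DESeq2 adjusted p = 0.201, from the authors' deposited table). The AKT-binding modulators TRIB3, THEM4 and TCL1A had values in the authors' deposited table of 0.11, -0.08 and -0.08 on the log2 scale, knockdown over control, and 0 of the 3 passed by DESeq2, with 0 at an unadjusted p under 0.05.

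Of 10 genes known to be induced by FOXO factors, 1 was lower and 0 higher in the authors' deposited table, with a median log2 fold change of -0.02. BCL2L11, which encodes a pro-apoptotic BCL2 relative, fell from 1597 to 919 and 1247 normalised counts (DESeq2 adjusted p = 0.0048, from the authors' deposited table). TXNIP, an inhibitor of glucose uptake, averaged 412, 1223 and 353, high in shNPTX1_3 alone, and did not pass (DESeq2 adjusted p = 0.204, from the authors' deposited table). CDKN1A, a cell cycle inhibitor, had 887, 1398 and 547 and the receptor gene IGF1R 1109, 696 and 1547 in the authors' deposited table, with the hairpins on opposite sides of control. The difference between the hairpins was not tested for these genes.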
